A study of Oryza sativa Indica Group with 8 samples.

Results

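High-affinity nitrate transport in rice roots was followed through the genes of the NRT2 transporters and of their NAR2 partner proteins. The listed genes were NRT2.1, NRT2.2, NRT2.3, NAR2.1 and NAR2.2, and a probe set was taken where the annotation of the array assigned it to 1 of these 5 genes. This gave 3 probe sets for 3 genes, of 17905 genes with a probe set of their own and 57258 probe sets tested: Os.29842.1.S1_x_at for NRT2.3 (LOC4324249), Os.49093.2.S1_x_at for NRT2.2 (LOC4328052) and Os.56184.1.S1_at for NAR2.2 (LOC4336175). NRT2.1 and NAR2.1 had no probe set assigned to them and were not analysed here. The annotation gave each of the 3 probe sets to 1 gene only. The suffix _x_at of the NRT2.3 and NRT2.2 probe sets marks probes that may match other transcripts, so their signals may include relatives. The NAR2.2 probe set carries the plain suffix _at.

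NRT2 proteins carry nitrate together with protons across the plasma membrane of root cells, and they do so when nitrate outside the root is scarce. In rice, NRT2.1, NRT2.2 and the longer product of NRT2.3 need the NAR2.1 partner protein to work, whereas less is known of NAR2.2. Rice NRT2.1 and NRT2.2 have near-identical coding sequences, and the RefSeq gene table placed them next to each other with 0 genes between them. Rice NRT2.3 gives a longer and a shorter transcript, of which the longer one acts in moving nitrate from root to shoot. The annotation assigned the NRT2.3 probe set to the gene, not to 1 of its transcripts.

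Roots came from stressed Nootripathu, control Nootripathu, stressed IR20 and control IR20 plants, with 2 biological replicates and 2 arrays in each of the 4 groups. Nootripathu is labelled a low-yielding, deep-rooted indica landrace that tolerates drought, and IR20 a high-yielding, semi-dwarf, shallow-rooted indica cultivar that is susceptible to it. Plants stood singly in 1 m pipes. In the stressed groups water was withheld from 40 days after sowing, to an intensity judged by the rolling and drying of leaves. The labels give neither the length of the stress nor whether plants were pooled. Control roots were washed and stressed roots were only tapped clean, so this handling and drought cannot be told apart. In whole roots, fewer cells that express a gene and less of its RNA per cell cannot be told apart either.

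Values are log2 signals after the RMA normalisation of the authors, in which 1 unit is a 2-fold difference. The array medians lay between 5.29 and 5.35, the minima between 2.53 and 2.64 and the maxima between 14.9 and 15.3. On the array of stressed IR20 replicate 2 the gap between 3′ and 5′ probe sets was wide, a sign of RNA or labelling quality. It was 5.32 for the poly-A control RNAs there and 2.08 to 2.58 on the remaining 7 arrays, and for GAPDH 6.47 there and 2.92 to 3.79 on the remaining ones. Member results that rest on this array are given with and without it, and so are the IR20 drought differences of most other nitrogen genes named.

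The tissue label was set against 9 root markers, which include transporters of silicon and manganese, SHR1 and SCR1. The log2 of their summed linear signal was 13.9 on both stressed Nootripathu arrays and 15.3 on both control Nootripathu arrays. It was 13.9 and 14.0 on the stressed IR20 arrays and 15.8 on both control IR20 arrays. The highest marker was LSI1 in every group, at a mean of 13.5 in stressed Nootripathu, 14.5 in control Nootripathu, 13.7 in stressed IR20 and 14.5 in control IR20. The lowest marker, SCR1, was at 4.40, 5.40, 4.53 and 6.29 in the same order of groups, and in the stressed groups it lay below the array medians. Under drought 7 of the 9 markers fell and 1, HKT1-5, rose in Nootripathu, with a median of −1.38. All 9 fell in IR20, with a median of −3.39. Of all genes 23.2% fell and 31.1% rose in Nootripathu, and 32.3% fell and 28.9% rose in IR20. Between cultivars 7 markers were lower in Nootripathu in control roots, where 22.8% of all genes were lower. In stressed roots 4 markers were higher in Nootripathu and 1 lower, where 18.1% of all genes were higher and 16.7% lower. The nitrate transport genes are set beside these markers as a description. In IR20 NRT2.3 and NRT2.2 fell under drought, as all 9 markers did. NAR2.2 was at −0.16 there, but its mean of 5.22 in control IR20 was already in the middle of the array, so a fall could hardly show. In Nootripathu NRT2.2 fell and NAR2.2 was at 3.86. In control roots 0 of the 3 nitrate transport genes passed. NRT2.3 was at −0.51 there, lower in Nootripathu as 7 markers were (limma adjusted p = 0.0525). The part of the root markers in the results was not tested. Of the 7 green tissue markers 6 were measured, and their log2 sum was 8.37 to 8.41 in stressed Nootripathu, 8.62 to 8.76 in control Nootripathu, 8.90 to 9.18 in stressed IR20 and 9.04 to 9.12 in control IR20. Under drought 2 of these 6 fell in Nootripathu and 1 rose in IR20.

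NRT2.3 was at 10.78 and 10.93 on the stressed Nootripathu arrays and at 11.03 and 11.14 on the control Nootripathu arrays. It was at 5.04 and 5.38 on the stressed IR20 arrays and at 11.73 and 11.45 on the control IR20 arrays. The 2 stressed IR20 arrays were the only low ones, more than 5 units below each of the other 6. Within its array the NRT2.3 signal was at percentile 45.1 and 51.0 in stressed IR20, and between percentiles 91.4 and 95.8 on the other 6 arrays. The probe set therefore lay in the middle of all probe sets in stressed IR20 roots and among the brightest ones elsewhere.

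NRT2.2 was at 8.42 and 8.60 on the stressed Nootripathu arrays and at 10.24 and 10.18 on the control Nootripathu arrays. It was at 4.64 and 4.93 on the stressed IR20 arrays and at 10.04 and 9.90 on the control IR20 arrays. Stressed roots were lower than control roots in both cultivars, without overlap, and the stressed IR20 arrays were the lowest of all. In stressed IR20 NRT2.2 was at percentiles 37.7 and 43.6 of its array, against 85.7 and 86.8 in control IR20. In Nootripathu it was at percentiles 76.3 and 77.3 under stress, against 88.0 and 88.3 in control roots.

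NAR2.2, the gene of a partner protein, had another pattern. It was at 9.11 and 9.24 on the stressed Nootripathu arrays and at 5.20 and 5.43 on the control Nootripathu arrays. It was at 4.79 and 5.33 on the stressed IR20 arrays and at 5.16 and 5.28 on the control IR20 arrays. Only the stressed Nootripathu arrays were high, at percentiles 80.7 and 81.3 of all probe sets, and the other 6 arrays lay between percentiles 40.6 and 51.2 and overlapped across groups. The deposited table holds no detection calls, so values in the middle of an array do not show whether a transcript was present. Differences against such values (NRT2.3 and NRT2.2 in stressed IR20, NAR2.2 in every group but stressed Nootripathu) are limited by background, and no fold or rank is given for them.

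**Figure D1:**
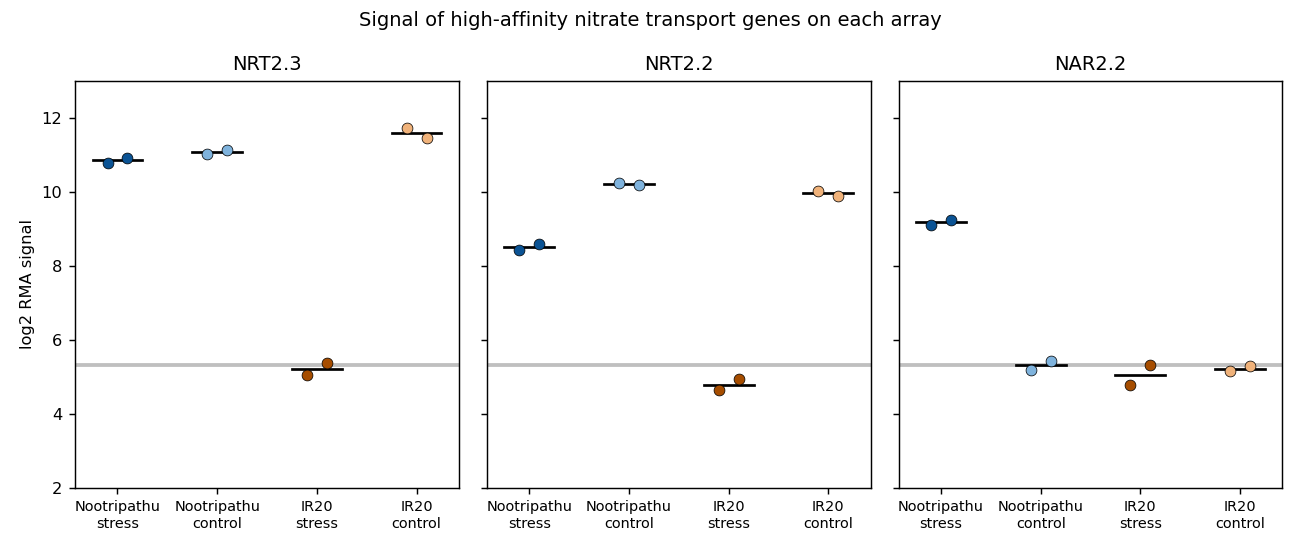
The log2 RMA signal (vertical axis) of NRT2.3, NRT2.2 and NAR2.2 on each of the 8 arrays, with a point per array, a black line at the mean of the 2 arrays of a group, and a grey band over the range of the array medians (5.29 to 5.35). NRT2.3 and NRT2.2 drop to about the array median or below it in stressed IR20 roots alone, and NAR2.2 leaves it in stressed Nootripathu roots alone.

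The drought comparison asked how watering changed each gene within a cultivar. These genes were chosen with the drought results known, in particular the fall of NRT2.3 in IR20 and the rise of NAR2.2 in Nootripathu. Their drought differences are therefore a description, and no p-value is given for them. In Nootripathu 1 of the 3 genes passed the threshold (limma, adjusted p under 0.05) as higher and 1 as lower, where 31.9% of all probe sets passed, 17.5% as higher and 14.4% as lower. In IR20 2 of 3 passed as lower and 0 as higher, where 38.1% of all probe sets passed, 17.1% as lower and 21.0% as higher. With 1 probe set per gene the shares were larger. In Nootripathu 31.1% of genes passed as higher and 23.2% as lower, and in IR20 28.9% as higher and 32.3% as lower. The arrays did not overlap for 3 of the 3 genes in Nootripathu, against 67.2% of all probe sets, and for 2 of 3 in IR20, against 66.7%.

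NRT2.3 averaged 10.85 ± 0.11 in stressed Nootripathu roots and 11.09 ± 0.08 in control Nootripathu roots (SD, n = 2 each), a difference of −0.23 ± 0.15 (SE) that did not pass. Both stressed arrays lay below both control arrays. In IR20 it averaged 5.21 ± 0.24 in stressed roots and 11.59 ± 0.20 in control roots. The difference was −6.38 ± 0.15. Without stressed IR20 replicate 2 it was −6.55, and without replicate 1 it was −6.21.

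NRT2.2 averaged 8.51 ± 0.13 in stressed Nootripathu roots and 10.21 ± 0.05 in control Nootripathu roots, a difference of −1.70 ± 0.13 or 3.24-fold. In IR20 it averaged 4.79 ± 0.21 in stressed roots and 9.97 ± 0.09 in control roots. That difference was −5.18 ± 0.13, and it was −5.33 without stressed IR20 replicate 2. NRT2.2 was thus lower under drought in both cultivars. The NRT2.3 difference was −0.23 in Nootripathu and −6.38 in IR20, and under spike-in scaling it was −1.13 in Nootripathu. The 2 probe sets may share transcripts of relatives and are not independent measures.

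NAR2.2 averaged 9.17 ± 0.09 in stressed Nootripathu roots and 5.31 ± 0.16 in control Nootripathu roots, a difference of 3.86 ± 0.18. In IR20 it averaged 5.06 ± 0.38 in stressed roots and 5.22 ± 0.09 in control roots, a difference of −0.16 ± 0.18 whose arrays overlapped and which did not pass. The sign in IR20 depended on the array, with −0.43 without stressed replicate 2 (where it passed) and 0.11 without stressed replicate 1. Over the 3 genes the median drought difference was −0.23 in Nootripathu and −5.18 in IR20, against −0.000915 and 0.0994 over all probe sets.

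The drought effects of the cultivars were set against each other as the effect in Nootripathu minus that in IR20. The difference was 6.15 ± 0.21 for NRT2.3, 4.02 ± 0.25 for NAR2.2 and 3.48 ± 0.18 for NRT2.2 (SE). All 3 were past the threshold in the positive direction, where 19.6% of all probe sets passed, 10.6% in that direction and 8.99% in the other. With 1 probe set per gene, 21.2% of genes passed in the positive direction and 11.8% in the other. Nothing is read from the count of members since the genes were chosen on it. The 3 genes reached a like sign by different routes: NRT2.3 and NRT2.2 through a larger fall in IR20, NAR2.2 through a rise in Nootripathu. Without stressed IR20 replicate 2 the values were 6.32, 4.29 and 3.63.

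The cultivars were also compared at a fixed water supply. In control roots 0 of the 3 genes passed, where 19.3% of all probe sets did (8.37% higher and 10.9% lower in Nootripathu), and 1 had an unadjusted p under 0.05 in the limma fit. With 1 probe set per gene, 12.6% of genes were higher and 22.8% lower in control Nootripathu. This comparison was not the one the genes were chosen on, although it shares its arrays with the drought comparisons. NRT2.3 averaged 11.09 in control Nootripathu and 11.59 in control IR20, a difference of −0.51 ± 0.15 (SE; 95% interval −0.85 to −0.16, limma adjusted p = 0.0525). Both Nootripathu arrays lay below both IR20 arrays. This value sat at the threshold and passed in 5 of 9 other settings, with limma adjusted p between 0.0112 and 0.0418 in those 5. A difference of this size could not pass the 2-fold minimum, which is among the 9. The array weights were lowest on the 2 stressed IR20 arrays (0.46 each), which enter here only through the pooled spread. All settings use the same data, so the tally is not a count of independent checks.

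NRT2.2 averaged 10.21 in control Nootripathu and 9.97 in control IR20, a difference of 0.24 ± 0.13 (95% interval −0.06 to 0.54, limma adjusted p = 0.269). NAR2.2 averaged 5.31 in control Nootripathu and 5.22 in control IR20, a difference of 0.09 ± 0.18 (95% interval −0.32 to 0.51, limma adjusted p = 0.79). In watered roots the signals of these 3 probe sets thus lay within less than 1 unit between the cultivars, as the intervals bound it. NAR2.2 was in the middle of the arrays in both groups, so its interval does not show like expression. Of 2 unnamed probe sets that share the NRT2.2 identifier number, Os.49093.1.S1_at differed by −1.40 ± 0.22, outside that bound. The other, Os.49093.1.S1_a_at, differed by −0.13 ± 0.15. For 2 of the 3 genes the arrays did not overlap, as for 61.5% of all probe sets.

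In stressed roots all 3 genes were higher in Nootripathu than in IR20 and past the threshold, where 22.0% of all probe sets passed, 10.7% as higher and 11.3% as lower. With 1 probe set per gene, 18.1% of genes passed as higher and 16.7% as lower. This comparison uses the stressed arrays on which the genes were chosen, so it is a description. NRT2.3 averaged 10.85 in stressed Nootripathu and 5.21 in stressed IR20, a difference of 5.64 ± 0.15 that was 5.82 without stressed IR20 replicate 2. NAR2.2 averaged 9.17 and 5.06 in these groups, a difference of 4.11 ± 0.18 that was 4.38 without that array. NRT2.2 averaged 8.51 and 4.79, a difference of 3.72 ± 0.13 that was 3.87 without it. No array of stressed IR20 reached any array of stressed Nootripathu for any of the 3 genes, where 59.4% of all probe sets did not overlap. The difference of any 2 such arrays was between 5.40 and 5.89 for NRT2.3, between 3.78 and 4.45 for NAR2.2 and between 3.49 and 3.96 for NRT2.2.

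The order of the groups differed between the genes. For NRT2.3 it was control IR20, control Nootripathu, stressed Nootripathu and, far below, stressed IR20. Among the first 3 the differences between neighbours did not pass. Control IR20, at a mean of 11.59, was not tested against stressed Nootripathu, at 10.85. For NRT2.2 control Nootripathu and control IR20 stood together at the top, followed by stressed Nootripathu and then stressed IR20. For NAR2.2 stressed Nootripathu stood alone, and the arrays of control Nootripathu, control IR20 and stressed IR20 overlapped. Without stressed IR20 replicate 2 the IR20 drought difference of NAR2.2 was −0.43. Control Nootripathu was not tested against stressed IR20.

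**Figure D2:**
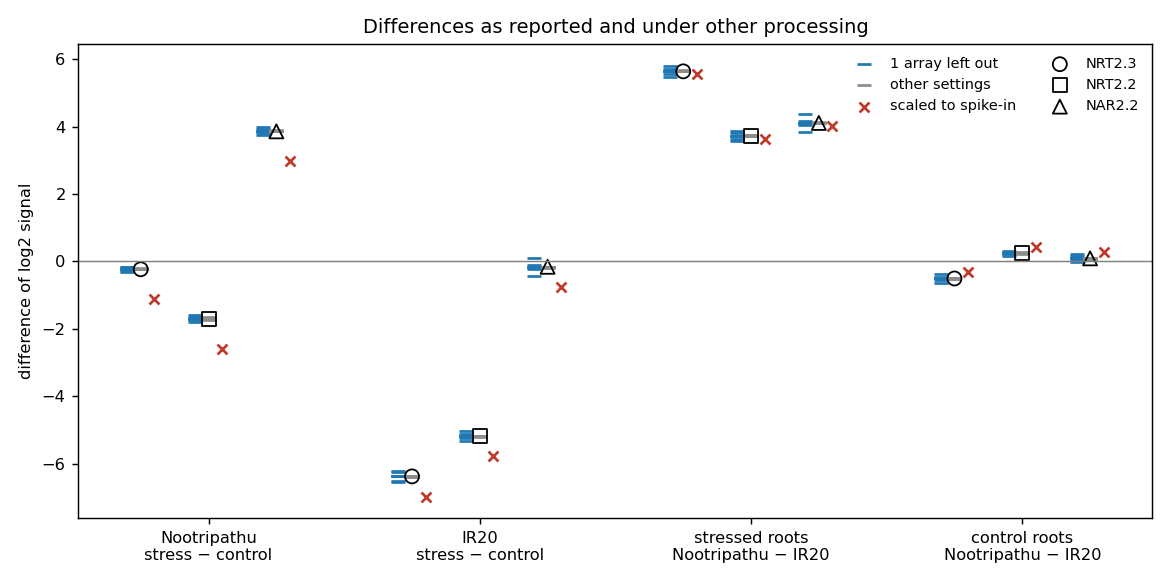
Differences of log2 signal (vertical axis) for NRT2.3, NRT2.2 and NAR2.2 in 4 comparisons (horizontal axis), as reported (open symbols), with 1 array left out (blue dashes), under other settings (grey dashes) and with arrays scaled to the poly-A spike-in signal (red crosses). The differences in stressed roots and the falls of NRT2.3 and NRT2.2 in IR20 lie far from 0 under every setting drawn, and the spike-in scaling moves the drought differences down.

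Scaling to the spike-in signal changed 1 member call within a cultivar. The 3′ spike-in signal was higher on stressed than on control arrays, by 0.89 in Nootripathu and by 0.61 in IR20. With the arrays scaled to it, the probe sets as a whole had a median difference of −0.89 in Nootripathu and −0.51 in IR20, and every drought difference moved down by the same amount within a cultivar. NRT2.3 was then at −1.13 in Nootripathu and passed. As the scaling moves all probe sets alike within a cultivar, it cannot change the place of NRT2.3 relative to their median. NAR2.2 was at 2.97 in Nootripathu under this scaling, and NRT2.3 at −6.99 in IR20.

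Named genes with the most similar signal over the 8 arrays were sought among 2448 named genes outside the members, each centred on its own mean. Likeness was the root mean square difference of log2 signal, and Pearson's r is given as a description over the 8 arrays, which fall into 4 groups. NRT2.3 was nearest to ALN (LOC4337428), the gene of allantoinase, which breaks down the nitrogen-rich compound allantoin (0.74, r = 0.961). ALN differed under drought by 1.42 in Nootripathu and by −5.94 in IR20, so it shares the IR20 fall and has another sign in Nootripathu. The next were CIN2 (LOC4335790), a cell wall invertase gene (0.95, r = 0.952), and OsPLP2 (LOC4345833; 1.04, r = 0.934).

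NRT2.2 had closer companions, and 2 of them were the same genes. OsPLP2 was the nearest (0.33, r = 0.992), with drought differences of −2.13 in Nootripathu and −4.43 in IR20. CIN2 followed (0.44, r = 0.982), with −1.41 in Nootripathu and −5.11 in IR20. The third was BZIP52 (LOC4341753), of the bZIP transcription factors (0.59, r = 0.963), with −2.90 in Nootripathu and −4.40 in IR20.

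The genes nearest to NAR2.2 were GST-I (LOC4325710), of the detoxifying glutathione S-transferases (0.70, r = 0.918), MRL7 (LOC4327529; 0.72, r = 0.963) and the sugar transporter gene OsSWEET12 (LOC4332825; 0.74, r = 0.959). All 3 had their highest mean in stressed Nootripathu. GST-I differed under drought by 2.78 in Nootripathu and 1.43 in IR20. MRL7 differed by 2.04 in Nootripathu and −0.69 in IR20. OsSWEET12 differed by 4.96 in Nootripathu and 1.52 in IR20. GST-I and OsSWEET12 thus had positive differences in IR20 too, where NAR2.2 was at −0.16 and did not pass.

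**Figure D3:**
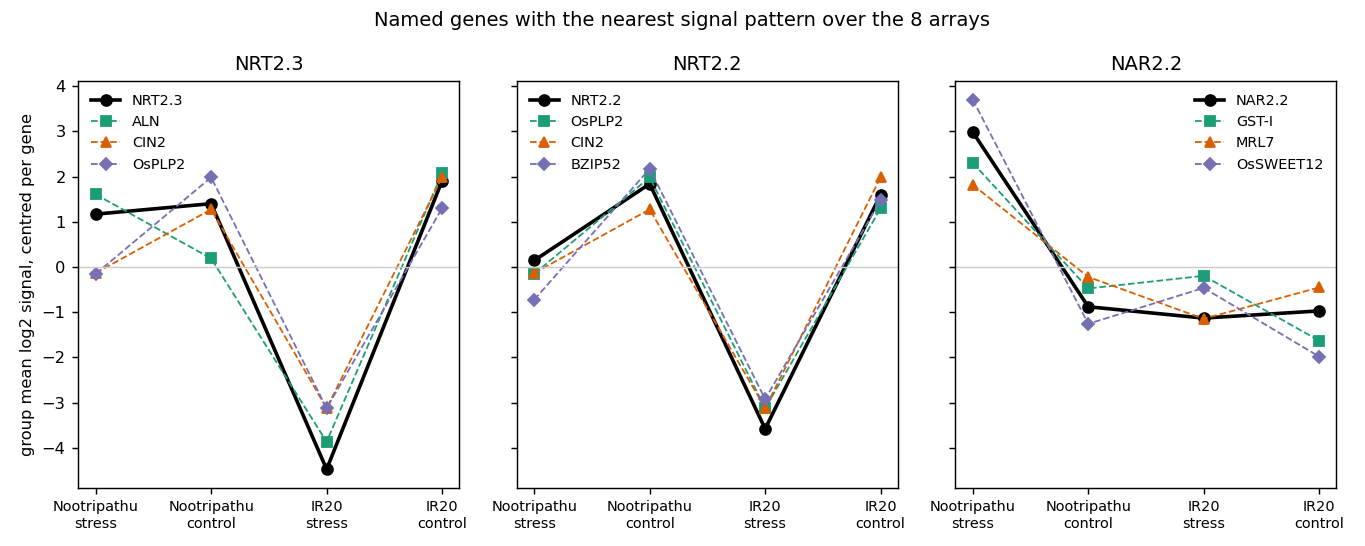
Group means of log2 signal, centred per gene (vertical axis), in the 4 groups (horizontal axis) for NRT2.3, NRT2.2 and NAR2.2 (black) and the 3 named genes nearest to each (dashed). The nearest genes of NRT2.3 and NRT2.2 share the low point in stressed IR20 roots, and those of NAR2.2 share the high point in stressed Nootripathu roots.

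The steps that follow nitrate uptake were read from 18 other genes of nitrate and ammonium use, each represented by its brightest probe set. Nitrate reductase turns nitrate into nitrite, glutamine synthetase and glutamate synthase fix ammonium into amino acids, ammonium transporters take up the other inorganic nitrogen source, and NLP proteins are transcription factors of the nitrate response. In Nootripathu 10 of the 18 fell under drought and 4 rose, with a median of −0.56, where 23.2% of all genes fell and 31.1% rose and the median was 0.0754. In IR20 13 fell and 4 rose, with a median of −0.99, where 32.3% of all genes fell and 28.9% rose and the median was 0.00038. These genes had been part of an earlier reading of the same arrays, so the counts are not independent evidence. The genes named were also picked by the size of their change or after their values were seen. Their limma p-values, here and below, are therefore descriptive and not independent tests.

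Nitrate reductase, the step after uptake, was represented by NIA1 (LOC4345795). It was at 10.68 and 10.60 in stressed Nootripathu, against 11.06 and 11.04 in control Nootripathu, a fall of −0.41 ± 0.10 (limma adjusted p = 0.0115). That call was lost without either control Nootripathu array or without stressed Nootripathu replicate 2 (adjusted p between 0.0648 and 0.0775). In IR20 NIA1 was at 9.02 and 9.06 in stressed roots, against 12.25 and 12.16 in control roots, a fall of −3.17 ± 0.10 (adjusted p = 2.49e-07), or −3.18 without stressed replicate 2. The drought effects differed by 2.76 ± 0.14 between the cultivars (limma adjusted p = 2.14e-05). A second, dim NIA1 probe set, with group means between 4.98 and 5.22, passed in neither cultivar.

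Among the 6 genes of glutamine and glutamate synthesis 3 fell and 1 rose in Nootripathu, and 5 fell and 1 rose in IR20. The largest fall was that of GLN1-2 (LOC4332108), a cytosolic glutamine synthetase, by −2.12 ± 0.12 in Nootripathu and −5.17 ± 0.12 in IR20 (limma adjusted p = 6.15e-06 and 1.13e-07). GLN1-3 (LOC4333896), of the same family, was the rise in both, by 3.84 ± 0.14 in Nootripathu and 3.62 ± 0.14 in IR20 (limma adjusted p = 9.52e-07 and 6.14e-07). The 2 family members thus moved in opposite directions in both cultivars. The effects on GLN1-2 differed by 3.05 ± 0.17 between the cultivars (limma adjusted p = 3.49e-05), and those on GLN1-3 by 0.22 ± 0.19, which did not pass (adjusted p = 0.483). The GLN2 probe set counted here fell by −1.34 ± 0.09 in Nootripathu, whereas its other, dim probe set rose there by 1.22 ± 0.22 (limma adjusted p = 0.00314), at means of 4.13 in stressed and 2.91 in control roots. Without stressed IR20 replicate 2 the IR20 differences were −5.30 for GLN1-2 and 3.79 for GLN1-3.

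Of the 8 ammonium transporter genes 5 fell and 2 rose in each cultivar. OsAMT1;2 (LOC4330008) fell by −2.71 ± 0.09 in Nootripathu and −6.95 ± 0.09 in IR20, where its mean of 3.52 in stressed roots was low on the array and limits the difference. Without stressed IR20 replicate 2 the IR20 differences were −6.95 for OsAMT1;2 and 0.71 for AMT3-1. AMT3-1 rose by 1.03 ± 0.18 in Nootripathu and 1.01 ± 0.18 in IR20, but its other probe set rose in IR20 only and differed by 0.14 ± 0.10 in Nootripathu, which did not pass (limma adjusted p = 0.353). Under spike-in scaling neither AMT3-1 rise passed, at 0.13 in Nootripathu and 0.41 in IR20 (limma adjusted p = 0.699 and 0.289). AMT2-3 fell by −1.71 ± 0.15 in Nootripathu and rose by 0.76 ± 0.15 in IR20 (limma adjusted p = 6.45e-05 and 0.00454). Under spike-in scaling GLN1-3 was the only nitrogen gene whose rise passed in IR20, so the AMT2-3 rise did not. The brightest AMT1-1 probe set fell in both cultivars, while its other, dim probe set rose by 0.64 ± 0.17 in IR20.

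Under drought the NLP regulators moved little within a cultivar. NLP2 rose by 0.61 ± 0.09 in Nootripathu and 0.47 ± 0.09 in IR20, and both values were negative and did not pass under spike-in scaling. NLP1 fell by −0.63 ± 0.12 in Nootripathu and −0.44 ± 0.12 in IR20. NLP3 differed by 0.20 ± 0.10 in Nootripathu, which did not pass, and fell by −0.48 ± 0.10 in IR20 (limma adjusted p = 0.168 and 0.00442). Without stressed IR20 replicate 2 the IR20 differences were 0.47 for NLP2 and −0.53 for NLP3.

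By the brightest probe sets of the 18 genes, 9 had a drought effect higher in Nootripathu than in IR20 by the test of the difference. A lower one was found for 1, AMT2-3, where 21.2% of all genes were higher and 11.8% lower. Dimmer probe sets of AMT3-1 and AMT1-1 also passed with a lower effect (−0.95 and −0.91), and that of GLN2 with a higher one (1.12). In control roots 8 of the 18 were lower in Nootripathu than in IR20 and 1, AMT2-3, was higher, where 22.8% of all genes were lower and 12.6% higher. NIA1 was lower in control Nootripathu, at a mean of 11.05 against 12.21 in control IR20 (−1.16 ± 0.10, limma adjusted p = 9.68e-05), and GLT2, an NADH-dependent glutamate synthase, differed by −1.21 ± 0.13 (adjusted p = 0.000401) at means below the array medians, 4.04 in Nootripathu and 5.25 in IR20. In stressed roots 7 of the 18 were higher in Nootripathu and 3 lower, where 18.1% of all genes were higher and 16.7% lower. NLP1, among the 3 lower ones, did not pass without stressed IR20 replicate 2 (adjusted p = 0.0987). NIA1 was higher in stressed Nootripathu, at a mean of 10.64 against 9.04 in stressed IR20 (1.60 ± 0.10, limma adjusted p = 1.78e-05). So were GLN1-2, at 10.28 against 8.11 (2.17 ± 0.12, limma adjusted p = 1.22e-05), and NLP3, at 12.47 against 11.47 (1.00 ± 0.10, limma adjusted p = 0.00024). OsAMT1;2 differed by 3.08 ± 0.09 in stressed roots, limited by its low signal in IR20, and by −1.16 ± 0.09 in control roots. AMT2-3 differed by −1.43 ± 0.15 in stressed roots and by 1.03 ± 0.15 in control roots.

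**Figure D4:**
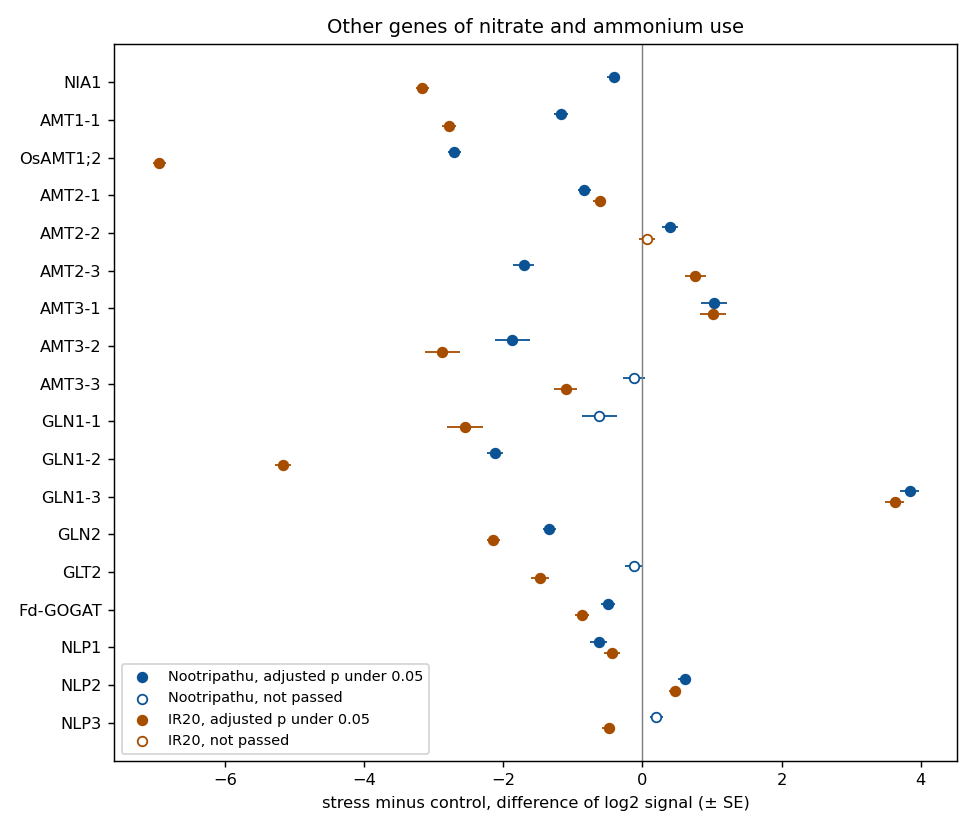
Drought differences (stress minus control, log2 signal ± SE, horizontal axis) of 18 other genes of nitrate and ammonium use in Nootripathu (blue) and IR20 (brown); filled points passed at an adjusted p under 0.05. GLN1-3 rises and GLN1-2 and OsAMT1;2 fall in both cultivars, with the larger falls in IR20. AMT2-3 moves in opposite directions as drawn, and its rise in IR20 did not pass under spike-in scaling.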

How the data were processed

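Total RNA from roots, 2 ug per sample, was labelled and hybridised to an Affymetrix rice array, per the labels' protocols. The submitters' processing notes name Expression Console 3.0 (Affymetrix) and RMA, and the authors deposited log2 signals of 57381 probe sets, of which 123 array controls did not enter the tests. Depth has no meaning here; the number of arrays, 2 per group, limits precision, and 2 against 2 arrays cannot give an exact permutation p under 0.333. Groups came from sample titles. A model of group means over all 8 arrays was fitted in limma 3.58.1 (R 4.3.3), with 4 residual degrees of freedom, Benjamini-Hochberg adjustment over 57258 probe sets and a threshold of 0.05. Whether the replicates came from separate plants is not stated, so p-values measure only the spread between these arrays.

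The annotation gave 22436 probe sets to exactly 1 gene (17905 genes, 2451 named) and 95 to several. Names came from RefSeq by gene ID. Members and lists were chosen with earlier results of these data known. As no gene descriptions were at hand, the nitrogen genes were matched by symbol, endoglucanases named GLU were left out, and 0 low-affinity nitrate transporter, nitrite reductase or further NRT2 genes were found. By rule, the text names the members, the largest rise and fall per nitrogen group and comparison among genes past the threshold without overlap, and the 3 nearest genes per member; other genes named beside them were chosen after their values were seen. The fit was tested on simulated data. Alternatives were a replicate block, only the arrays compared, no dim probe sets, other scalings, priors and weights, a 2-fold minimum, no shared probe sets, another probe set per gene, and leaving out each array.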

Additional observations from a re-analysis of the deposited data

Results flagged for a closer look

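Drought effects that differed between the cultivars by the limma test of the difference itself (Nootripathu minus IR20, log2) were picked out for a closer look. The members, which were chosen with these responses in view, stood at 6.15 for NRT2.3, 4.02 for NAR2.2 and 3.48 for NRT2.2. Among the other nitrogen genes named, OsAMT1;2 stood at 4.24 (limma adjusted p = 5.95e-06), GLN1-2 at 3.05 (3.49e-05) and the nitrate reductase gene NIA1 at 2.76 (2.14e-05). GLT2 stood at 1.35 (limma adjusted p = 0.002) and NLP3 at 0.68 (0.0107), and neither passed under spike-in scaling, at 1.06 and 0.40. NLP3 also did not pass without control Nootripathu replicate 2 (adjusted p = 0.0542). AMT2-3 stood at −2.46 (limma adjusted p = 0.000205), with a fall in Nootripathu and a rise in IR20 that did not pass under spike-in scaling.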

How the results depend on the processing

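No member difference that passed lost its call or changed sign under any alternative run; without probe sets ending in _s_at, _x_at or _a_at, NRT2.3 and NRT2.2 could not be computed. Leaving out 1 array gave 5.98 to 6.32 for NRT2.3, 3.34 to 3.63 for NRT2.2 and 3.75 to 4.29 for NAR2.2 in the difference of drought effects. The NRT2.3 difference in control roots passed at −0.51 with only the arrays compared (limma adjusted p = 0.0355), without the 40% dimmest probe sets (0.0415), with a trended and robust prior (0.0112) and with array weights (0.0171), and at −0.53 with median-centred arrays (0.0418). It was −0.64 to −0.37 with 1 array left out, passing only without a stressed IR20 array, which leaves the value as it was and changes the spread (adjusted p = 0.0246). NAR2.2 in IR20 was −0.43 to 0.11 with 1 array left out, with the −0.43 coming from the run without stressed replicate 2. NAR2.2 in control roots was −0.022 to 0.21. The cause of these changes was not tested.

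With 1 array left out, 6509 to 14153 probe sets passed for the difference of drought effects (11204 with all arrays), 6415 to 14494 between cultivars in control roots (11048) and 7266 to 14365 in stressed roots (12601). Counts fell by over 1.5 times without any single Nootripathu array or control IR20 replicate 2 for the difference, without either control Nootripathu array or control IR20 replicate 2 in control roots, and without either stressed Nootripathu array in stressed roots. In control roots 2 nitrogen genes were higher in Nootripathu without dim probe sets, with the trended prior, with array weights and without shared probe sets. Without shared probe sets 2 nitrogen genes fell in the difference. With only the arrays compared, 7506 probe sets passed in stressed roots.

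A 2-fold minimum left 7199 probe sets for drought in Nootripathu, 8713 in IR20, 5142 for their difference, 3763 in control and 3587 in stressed roots, against 18267, 21807, 11204, 11048 and 12601. Among nitrogen genes 2 then rose and 6 fell in Nootripathu, 2 rose in IR20, 3 were lower in control Nootripathu and 1 in stressed Nootripathu. Spike-in scaling gave 43988 probe sets for Nootripathu drought, 3228 for the difference, 4710 in control and 4386 in stressed roots. NRT2.3 was past the threshold under it, at −1.13 in Nootripathu. Of the nitrogen genes 1 then rose in each cultivar, 4 had a higher effect in Nootripathu, and 3 were lower in control and 1 in stressed Nootripathu roots. NLP2 turned to −0.29 in Nootripathu, −0.14 in IR20 and −0.15 for the difference, GLN1-3 to −0.071 and AMT3-1 to −0.27 for the difference. AMT3-1 was also −0.087 there after a further quantile normalisation and −0.29 to 0.31 with 1 array left out, against 0.01, which did not pass. These values are of its brightest probe set. Its other probe set stood at −0.95 ± 0.14 for the difference (limma adjusted p = 0.00305).

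Same-numbered replicates are not stated to share anything, and the correlations of their deviations ran from −0.0145 to 0.207. With the replicate number as a block, 18490, 21878, 11251, 11080 and 12674 probe sets passed in the order of the 2-fold counts, and no member call changed.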

Other observations

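A pair of further probe sets, Os.49093.1.S1_at and Os.49093.1.S1_a_at, share the number in their identifier with the NRT2.2 probe set, and the annotation used here assigns no gene to them. They were looked at after the values of NRT2.2 had been seen, and they carry no gene name here. Os.49093.1.S1_at was at 8.59 and 8.67 in stressed Nootripathu, 9.99 and 9.94 in control Nootripathu, 2.99 and 3.77 in stressed IR20, and 11.36 and 11.37 in control IR20. Its lowest value was close to the array minimum, so its difference of −7.98 ± 0.22 in IR20 is limited by background. In control roots it was lower in Nootripathu than in IR20, by −1.40 ± 0.22 (limma adjusted p = 0.00272). Os.49093.1.S1_a_at was at 9.39 and 9.35 in stressed Nootripathu, 10.95 and 10.82 in control Nootripathu, 5.36 and 5.82 in stressed IR20, and 10.96 and 11.08 in control IR20. In control roots its difference was −0.13 ± 0.15, which did not pass (limma adjusted p = 0.625). The 2 probe sets thus gave unlike cultivar gaps in watered roots and like directions under drought.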
